A study of Mus musculus with 4 samples.

Results

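The regions described here are those of the combined ChIP-seq table in which neither isoform of the transcription factor Mef2D had a peak of its own. They were chosen by position: a region was a member if it shared no bp with any peak of the Mef2Da1 list or of the Mef2Da2 list. There were 7528 such regions among 19749 combined regions, or 38.1% (exact 95% interval 37.4 to 38.8). Because the lists were built from the signal of the isoforms, the heights and −log10 p of Mef2Da1 and Mef2Da2 in these regions were in part fixed by the choice and are given as a description with no test.

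MEF2 proteins are MADS-box transcription factors that bind A/T-rich elements in the control regions of many muscle genes, where they act together with the MyoD family. Mef2D is made in alternative forms through a choice between mutually exclusive exons. The form with the α1 exon is found in many tissues, and the α2 exon is used mainly in muscle, where its inclusion rises as myoblasts differentiate.

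All 4 libraries came from C2C12, a mouse myoblast line, after 5 days in low-serum medium with insulin and transferrin, when the cells form myotubes. In the group Mef2Da1 the endogenous isoform was precipitated with an antibody to a peptide of that isoform, and in the group Mef2Da2 the other endogenous isoform with its own peptide antibody. The control groups Mef2Da1-BLOCK and Mef2Da2-BLOCK used these antibodies blocked with peptide. Each group had 1 library of 1 cell line, so no value has a replicate error and no difference between libraries could be tested. Intervals on shares are exact (Clopper-Pearson) 95% binomial intervals that cover counting error only and treat regions as independent. Heights are coverage heights in whole numbers, not scaled to depth, and depth was unknown. Over all combined regions the summed height was 973579 for Mef2Da1, 377117 for Mef2Da1-BLOCK, 955997 for Mef2Da2 and 247315 for Mef2Da2-BLOCK. The members held 28.4% of the Mef2Da1 height and 22.1% of the Mef2Da2 height, but 37.7% and 37.4% of the blocked heights, close to their 38.1% of the regions. Coordinates are of the build mm9 and 1-based. Genes and sequences of that build were not analysed here, so the regions are named by position alone.

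Both isoforms had moderate signal in most of these regions. Mef2Da1 ranged from a height of 16 to 90 with a median of 37 (quartiles 33 and 41), and Mef2Da2 from 7 to 39 with a median of 28 (quartiles 24 and 33). Mef2Da1-BLOCK stood at a median of 18 (quartiles 14 and 23, range 1 to 47) and Mef2Da2-BLOCK at 12 (quartiles 9 and 15, range 0 to 34). The middle 50% of members for each isoform thus lay wholly above that of its own control, while the full ranges overlapped widely. Mef2Da2 ended abruptly at 39, a height reached by 121 members, whereas Mef2Da1 had a thin upper tail.

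**Figure D1:**
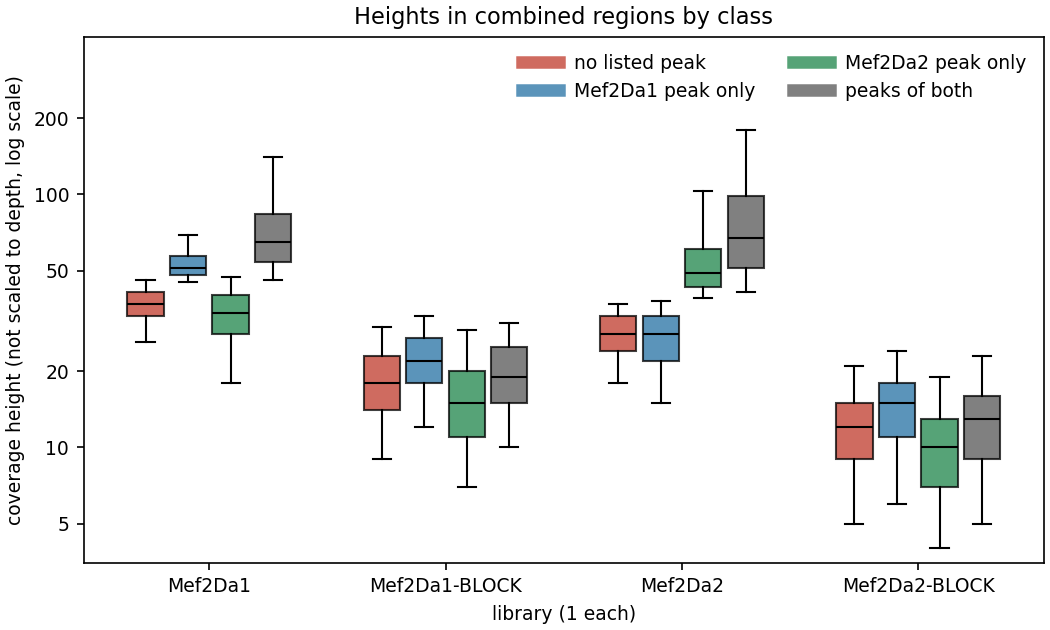
Coverage height (log scale, not scaled to depth) in the 4 libraries over combined regions without a listed peak (red) and over the classes with listed peaks. Boxes give quartiles and median, whiskers the 5th and 95th percentiles of regions; the red medians are 37 and 28 for the isoforms against 18 and 12 for their blocked controls.

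The joint floor of the table was sharp in height as well as in −log10 p. The heights of Mef2Da1 and Mef2Da2 summed to at least 52 in every combined region, and the lowest sum on each of the 19 autosomes lay between 52 and 54. Members clustered just above that floor, with a median sum of 64 (quartiles 59 and 69, highest 113). Regions with a Mef2Da1 peak only had a median sum of 80, those with a Mef2Da2 peak only 84, and those with peaks of both 135. The blocked controls had no such floor, and their heights summed to a median of 31 over the members. Their sum reached 52 in 173 of 7528 members (2.30%, interval 1.97 to 2.66). It did so in 3.38% of all combined regions and 6.19% of those with a Mef2Da1 peak only. Since the isoform sum had to be at least 52 and no library was scaled to depth, the gap between these sums is only a description.

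On the −log10 p scale, members spread along a diagonal band. The median was 4.40 for Mef2Da1 (quartiles 3.75 and 5.07) and 4.13 for Mef2Da2 (quartiles 3.31 and 4.92), with a median sum of 8.34. Both isoforms were at or above 3 in 5523 members (73.4%), against 81.2% of all combined regions. Mef2Da1 alone was at or above 3 in 1387 members (18.4%, against 10.9% of all combined regions), and Mef2Da2 alone in 618 (8.21%, against 7.88%). In no member were both below 3, as the table's lowest joint sum of 6.06 requires. The values of the isoforms lay within 1 unit of each other in 43.4% of members (interval 42.3 to 44.5), against 24.9% of all combined regions and 23.6% of those with peaks of both, where values were also larger. Mef2Da1 had the higher −log10 p in 57.2% of members, against 46.5% of all combined regions. Spearman's correlation between the isoform heights was −0.29 across 7528 members, and the floor on the sum together with the absence of listed peaks bounds the points on both sides.

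**Figure D2:**
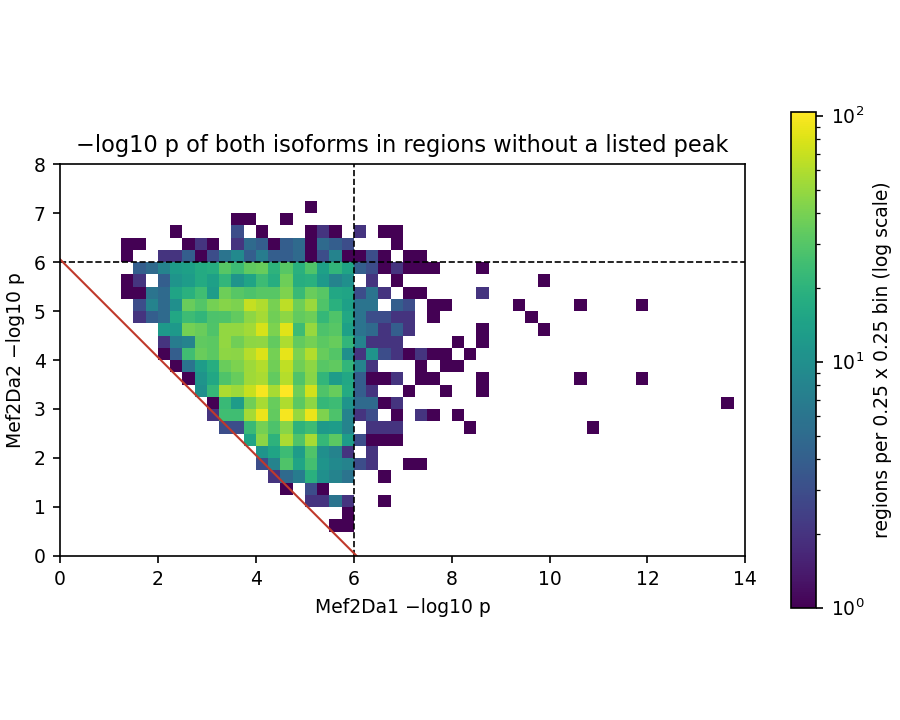
Mef2Da1 −log10 p (x axis) against Mef2Da2 −log10 p (y axis) for the 7528 regions without a listed peak, as region counts per bin on a log colour scale. Dashed lines mark 6, the level of the peak lists, and the red line the lowest joint sum in the table, 6.06; most regions lie in the triangle between them.

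Most members were below the level of the peak lists, where the lowest −log10 p was 6.01 for both. In 7178 members (95.4%, against 39.9% of all combined regions) both isoforms were below 6 in the combined table. This gap follows in large part from choosing regions without a listed peak. In the other 350 (4.65%, against 60.1% of all combined regions) an isoform reached 6, here without a listed peak. Mef2Da1 did so in 232 (3.08%, against 40.5% of all), Mef2Da2 in 130 (1.73%, against 46.1%), and both in 12 (0.159%, against 26.5%). The converse also occurred, since 701 of the 12221 regions with a listed peak had both values below 6 in the table. The table and the lists therefore gave unlike −log10 p to the same place, and the edge of the class was gradual. Between 5.5 and 6 in the table, 36.9% of regions had a listed Mef2Da1 peak and 22.5% a listed Mef2Da2 peak at the respective value. Between 6 and 6.5 these shares were 82.9% and 84.7%.

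The 3 members named just above 6 tied at a Mef2Da1 −log10 p of 6.01. The 3 regions with a listed peak named just below 6 tied at a Mef2Da2 −log10 p of 5.99. Each set rests on a tied value, so the isoform it came from does not describe the edge as a whole. A member at chromosome 1, 182706104 to 182706640, showed 44 for Mef2Da1 over a control of 13 and 39 for Mef2Da2 over a control of 6, with −log10 p of 6.01 and 5.84. Another member at chromosome 1, 179202306 to 179202678, shared the Mef2Da1 height of 44, over 12, with Mef2Da2 at 26 over 8. The third, at chromosome 10, 96269119 to 96269563, showed 44 over 18 and 28 over 21. On the other side, at chromosome 10, 106936652 to 106937173, a Mef2Da2 peak was listed where Mef2Da1 stood at 43 over 23 and Mef2Da2 at 37 over 11, with −log10 p of 5.75 and 5.99. The region at chromosome 10, 84460274 to 84460955, had a listed Mef2Da2 peak at the same height of 37, over 17, with Mef2Da1 at 32 over 24 and a Mef2Da1 −log10 p of 3.85. Another listed Mef2Da2 peak, in the region at chromosome 11, 59468158 to 59469197, stood at 37 over 13, with Mef2Da1 at 36 over 16 and a Mef2Da1 −log10 p of 4.53.

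The members with the highest Mef2Da1 signal often had a high Mef2Da1 blocked control, a trait that was not particular to members. Of 55 members with a Mef2Da1 −log10 p of 7 or more, 29 had a Mef2Da1-BLOCK score of 5 or more and 39 a score of 4 or more. Among all combined regions at that −log10 p, the score was under 2 in 2442, 2 to 3 in 1777 and 3 to 4 in 942. It was 4 to 5 in 403 of them and 5 or more in 103. Of these 103 regions, 29 were members and 7 had a listed Mef2Da1 peak, so the others had a Mef2Da2 peak only. The median Mef2Da1-BLOCK height of the 55 members was 38, against 18 over all members. All 17 members with a Mef2Da1 height of 60 or more had a Mef2Da1-BLOCK height between 35 and 43. In these 17, Mef2Da2-BLOCK was not raised to the same extent, with a median of 15 against 12. Among the 79 members with a Mef2Da1 height of 50 or more, the Mef2Da1-BLOCK height ran from 7 to 44. Of those 79, 57 had a Mef2Da1-BLOCK score of 4 or more. Regions with a listed peak were not examined at these height limits. Over all combined regions with a Mef2Da1 −log10 p of 7 or more, a Mef2Da1 peak was listed in 2422 of 2442 (99.2%) where the blocked score was under 2, in 374 of 403 (92.8%) where it was 4 to 5, and in 7 of 103 (6.80%, interval 2.78 to 13.5) where it was 5 or more. For Mef2Da2 only 3 regions with a −log10 p of 7 or more had a blocked score that high, of which 2 had a listed peak. How the authors used the blocked libraries in making the lists is not given in the sources used here.

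**Figure D3:**
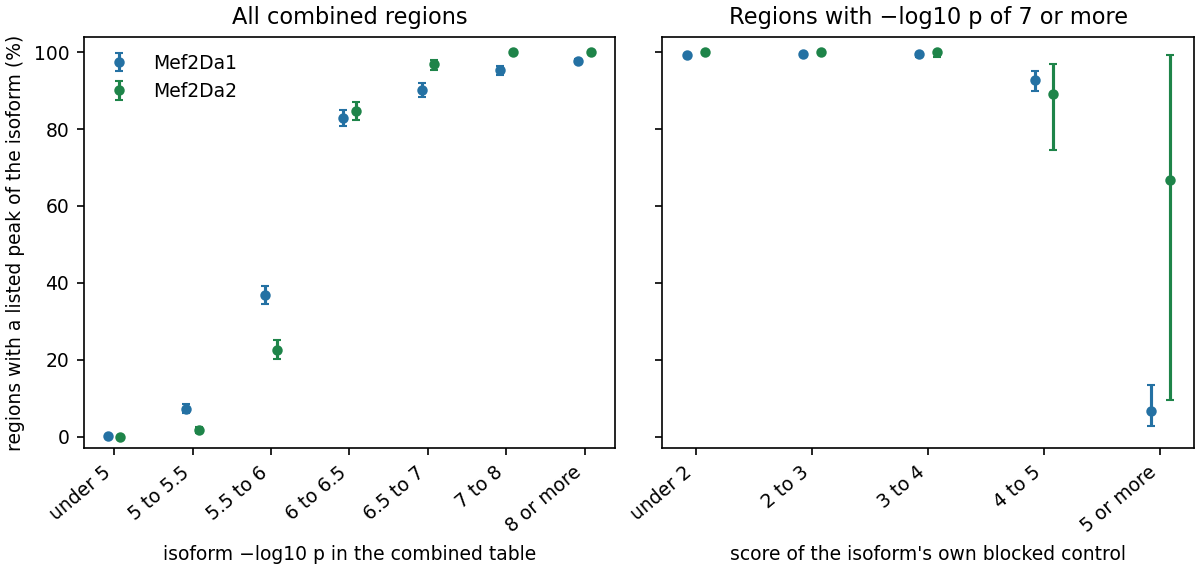
Share of combined regions with a listed peak of Mef2Da1 (blue) or Mef2Da2 (green), by the isoform's −log10 p in the combined table (left) and, where that is 7 or more, by the score of its own blocked control (right). Bars are exact 95% binomial intervals; for Mef2Da1 the share is 92.8% at scores of 4 to 5 and 6.80% at 5 or more.

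The 5 members with the highest joint −log10 p all had high Mef2Da1 coverage over a raised control. The highest sum, 17.1, was found at chromosome 12, 32611467 to 32612004, where Mef2Da1 reached 75 over a blocked height of 35 and Mef2Da2 reached 35 over 16. Next was chromosome 8, 97958400 to 97959279, with the highest Mef2Da1 height of any member, 90 over 40, but a Mef2Da2 height of 23 over 15. The region at chromosome 5, 136592229 to 136592993, showed 81 over 40 for Mef2Da1 and 26 over 15 for Mef2Da2. In these 3 regions Mef2Da1 supplied most of the joint value, at a log2 ratio of 1.00 to 1.15 to its control. The region at chromosome 4, 125998300 to 125999218, showed 73 over 38 and 34 over 22, in the same order. At chromosome 14, 32199106 to 32199741, Mef2Da1 was 69 over 38 and Mef2Da2 was 37 over 13. Also among the 5 tallest by Mef2Da1 were a region at chromosome 12, 101437511 to 101438188, with Mef2Da1 at 75 over 43 and Mef2Da2, at 20, below its own control at 22, and a region at chromosome 13, 114408348 to 114409040, with 74 over 39 and 26 over 11.

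Ranked by the lesser of both −log10 p values, other members came first, with both isoforms just past 6. The region at chromosome 18, 38043138 to 38043551, had a −log10 p of 6.86 for Mef2Da1, at 49 over 33, and of 6.54 for Mef2Da2, at 39 over 15. At chromosome 2, 112285667 to 112286072, the values were 6.53 at 45 over 17 and 6.68 at 37 over 4, and a listed Mef2Da1 peak lay 1328 bp away. The region at chromosome 18, 6018664 to 6019448, showed 46 over 14 and 39 over 6. At the chromosome 2 region and at the chromosome 18 region starting at 6018664, both isoforms were more than 2-fold above their controls without a listed peak. At chromosome 11, 8721238 to 8721895, Mef2Da1 was 49 over 34 and Mef2Da2 was 39 over 7, so the Mef2Da1 control was high and the Mef2Da2 control low. The region at chromosome 4, 53856486 to 53857350, showed 48 over 21 and 38 over 19. Of the 121 members at the highest Mef2Da2 height of 39, the one with the largest joint −log10 p lay at chromosome 5, 32437646 to 32438581, with Mef2Da2 over a control of 12 and Mef2Da1 at 62 over 41. The fifth of them by that measure, at chromosome 8, 60089787 to 60090280, had Mef2Da2 over a control of 11 and Mef2Da1 at 49 over 17.

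The blocked control equalled or passed the isoform at 60 members for Mef2Da1 (0.797%, against 0.724% of all combined regions) and at 233 for Mef2Da2 (3.10%, against 2.54% of all), and at no member for both. The 5 highest blocked scores among the members all belonged to Mef2Da1-BLOCK. The highest of them, 7.99, was at chromosome 5, 126672368 to 126672970, with a height of 42 beside 34 for Mef2Da1, while Mef2Da2 was 36 over 7. At chromosome 13, 72801046 to 72801606, Mef2Da1 was 42 and its control 41, with Mef2Da2 at 30 over 17. At chromosome 2, 32438880 to 32439403, Mef2Da1 and its control both stood at 46, with Mef2Da2 at 33 over 15. In these 3 regions the log2 ratio to the control was −0.30, 0.034 and 0 for Mef2Da1 and 2.21, 0.78 and 1.09 for Mef2Da2. The other members of the 5 highest scores, at chromosome 4, 150283643 to 150284363, and chromosome 17, 56496884 to 56497334, had a Mef2Da1-BLOCK height of 46 beside Mef2Da1 heights of 42 and 45. Mef2Da2 was 32 over 20 in the former and 25 over 11 in the latter.

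Each isoform was next compared with its own blocked control region by region, as a log2 ratio of heights with a pseudocount of 1 and no scaling. The median log2 ratio over members was 0.94 for Mef2Da1 (quartiles 0.65 and 1.27) and 1.15 for Mef2Da2 (quartiles 0.72 and 1.63), beside medians of 1.19 and 1.63 over all combined regions. Mef2Da1 was at least 2-fold above its control in 3524 members (46.8%), against 64.7% of all combined regions. Mef2Da2 was so in 4574 members (60.8%), against 75.0% of all. Both isoforms were at least 2-fold above their controls in 2420 members (32.1%, interval 31.1 to 33.2), against 52.4% of all combined regions, 32.2% of those with a Mef2Da1 peak only, 55.4% of those with a Mef2Da2 peak only and 90.9% of those with peaks of both. The lower of the isoform heights exceeded the higher of the blocked heights in 6040 members (80.2%), against 86.8% of all combined regions. These 4 shares lay below those of all combined regions, which include the regions chosen for a listed peak. They were not below those of every class: in regions with a Mef2Da1 peak only, Mef2Da2 was at least 2-fold above its control in 40.4%, and the lower isoform height exceeded the higher blocked height in 66.0%.

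The direction of the median depended on scaling. With each library scaled to its total over the table, the median log2 ratio of members became −0.36 for Mef2Da1 and −0.71 for Mef2Da2. Mef2Da1 was then at least 2-fold above its control in 1.51% of members, against 8.13% of all combined regions, Mef2Da2 in 2.80% against 16.2%, and both in 0.372% against 4.78%. With scaling by the median ratio, the medians were −0.19 and −0.40, and the shares 2.46% against 11.0%, 4.93% against 23.0%, and 0.651% against 7.36%. Either scaling centres the libraries on regions picked for isoform signal, and without depth no scaling free of that choice could be had. The members' share was below that of all combined regions in each form, whereas their median ratio was above 0 only without scaling.

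The members divided, as did all combined regions, unevenly by which isoform was at least 2-fold above its control without scaling. Mef2Da2 alone was in 2154 members (28.6%, against 22.5% of all combined regions), Mef2Da1 alone in 1104 (14.7%, against 12.2%), and neither in 1850 (24.6%, against 12.8%). Where both were at least 2-fold above, the median height of Mef2Da1 was 37 over 13 in its control, and that of Mef2Da2 was 31 over 9. Where neither was, these medians were 39 over 23 and 25 over 17. With Mef2Da1 alone they were 40 over 16 and 23 over 15, and with Mef2Da2 alone 34 over 21 and 31 over 10. The median width was 430 bp where both were 2-fold above and 608.5 bp where neither was. Since the groups were formed from these heights, their heights are a description.

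Width, which the rule did not use although a longer region has more bp in which to meet a peak, moved with the blocked height. The median member was 492 bp wide (quartiles 386 and 662, range 229 to 2805), like regions with a Mef2Da2 peak only (488 bp) and below those with a Mef2Da1 peak only (624 bp) or peaks of both (694 bp). Across members, Spearman's correlation of width was 0.36 with Mef2Da1-BLOCK height and 0.38 with Mef2Da2-BLOCK height, against 0.26 with Mef2Da1 height and 0.0053 with Mef2Da2 height. These are correlations across regions of the same 4 libraries, and a maximum over a longer window can be higher for that reason alone. From the narrowest 25% of members to the widest, the median Mef2Da1-BLOCK height went from 15 to 22 and that of Mef2Da2-BLOCK from 9 to 15, while Mef2Da1 went from 35 to 39 and Mef2Da2 stayed at 28. The rise of the controls was not particular to members. In the same bins Mef2Da1-BLOCK went from 17 to 24 with a Mef2Da1 peak only, 12 to 19 with a Mef2Da2 peak only and 13 to 21 with peaks of both. Mef2Da2-BLOCK rose in each of these classes too. Among members, the share with both isoforms at least 2-fold above their controls was 45.5% (interval 43.3 to 47.8) in the narrowest and 15.1% (13.5 to 16.8) in the widest. That share is not given by width for the other classes.

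The blocked controls also differed between classes of the same width. Among regions of 387 to 492 bp, the median Mef2Da1-BLOCK height was 17 in members, 20 with a Mef2Da1 peak only, 14 with a Mef2Da2 peak only and 16 with peaks of both. Mef2Da2-BLOCK stood at 11, 12, 9 and 10 in the same order. Over all widths, a Mef2Da1-BLOCK score of 3 or more was found in 1003 members (13.3%, interval 12.6 to 14.1), against 16.5% of all combined regions. Its share was 26.4% with a Mef2Da1 peak only, 9.83% with a Mef2Da2 peak only and 20.4% with peaks of both. A Mef2Da2-BLOCK score of 3 or more was found in 167 members (2.22%, interval 1.90 to 2.58), against 3.68% of all combined regions. In the other classes, in the same order, its share was 6.22%, 2.52% and 5.20%. Whether the lists used the blocked libraries is unknown, so these values may not be independent of the choice of members.

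**Figure D4:**
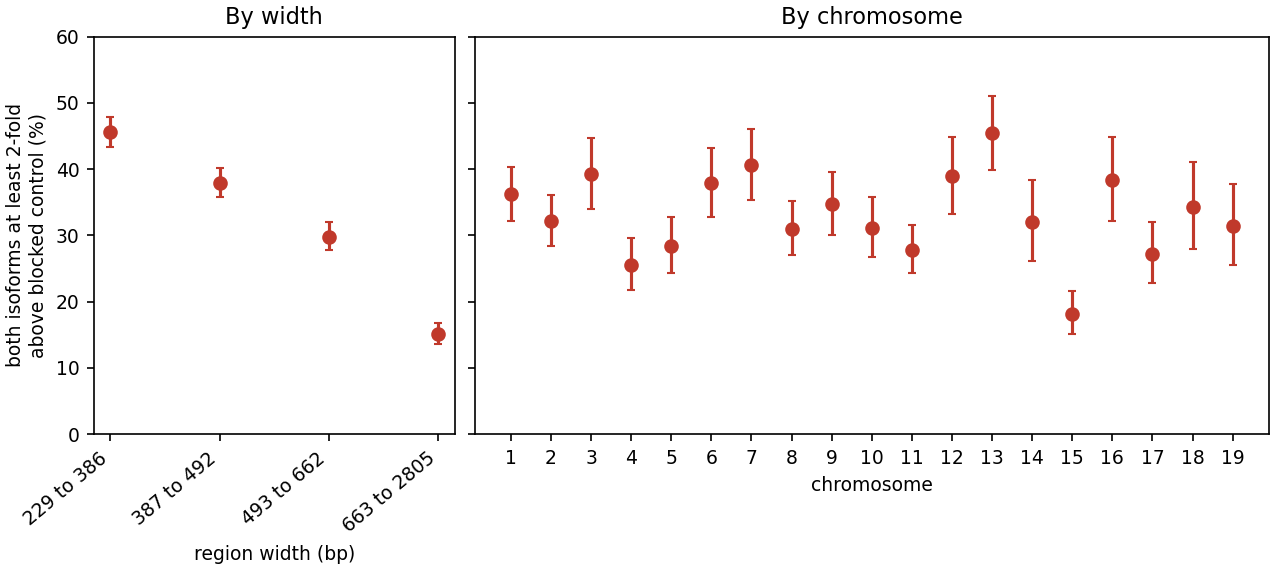
Share of regions without a listed peak in which both isoforms were at least 2-fold above their own blocked control (unscaled, pseudocount 1), by width in 4 bins of about equal size (left) and by chromosome (right). Points are shares with exact 95% binomial intervals; the share falls from 45.5% to 15.1% with width and is 18.2% on chromosome 15.

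The members were spread over all 19 autosomes and made up 31.3% (chromosome 18, interval 27.8 to 34.96) to 43.3% (chromosome 8, interval 40.5 to 46.2) of a chromosome's combined regions. On chromosome 15 their share was ordinary, 550 of 1452 regions (37.9%), but their values differed from those of members elsewhere. Regions of chromosome 15 with a listed peak were not compared, so these values may not be particular to members. Median blocked heights there were 22 for Mef2Da1-BLOCK and 14 for Mef2Da2-BLOCK, the highest of any chromosome, against 18 and 12 over members on the other 18. Isoform heights were 38 and 27, against 37 and 28. Both isoforms were at least 2-fold above their controls in 18.2% of the chromosome 15 members (interval 15.05 to 21.7), against 33.2% (32.1 to 34.4) of the others. The members of chromosome 15 were also wider, with a median of 543 bp against 488 bp, but the share was lower within each of the 4 width bins too, at 32.8% against 46.4% in the narrowest and 9.09% against 15.8% in the widest. The next lowest chromosome was 4, at 25.6%, and the highest was 13, at 45.4%.

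The last question was how near these regions lay to listed peaks. The median distance from a member's edge to the edge of the nearest listed peak of either isoform was 20450 bp (quartiles 5224 and 60905). Of the members, 58 (0.770%) lay within 100 bp of a listed peak and 672 (8.93%) within 1 kb. Within 10 kb lay 2673 (35.5%, interval 34.4 to 36.6) and within 100 kb 6387 (84.8%). Over all combined regions, measured to the nearest listed peak outside the region, the shares were close to these, at 0.724%, 9.07%, 37.1% and 85.6%. The nearest Mef2Da1 peak was at a median of 31330.5 bp and the nearest Mef2Da2 peak at 29587 bp. A peak of each list lay within 10 kb of 1594 members (21.2%, against 22.7% of all combined regions). The nearest peak was of Mef2Da1 for 56.5% of members and for 54.9% of all combined regions.

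This nearness was like that of regions with a Mef2Da1 peak only and somewhat greater than that of regions with a Mef2Da2 peak only. Measured to the nearest listed peak outside the region, the share within 10 kb was 34.6% (interval 32.9 to 36.3) for regions with a Mef2Da1 peak only and 32.6% (31.2 to 34.1) for those with a Mef2Da2 peak only. It was 44.2% (42.8 to 45.5) for regions with peaks of both, whose median distance was 13317 bp. Those regions were wider. Among regions of 387 to 492 bp the share within 10 kb was 36.2% for them and 34.6% for members, whereas at 663 to 2805 bp it was 49.2% and 39.5%. For regions with a Mef2Da2 peak only, the share was 24.3% at 229 to 386 bp, against 31.4% of members. At 387 to 492 bp it was 28.8% against 34.6%, and in the wider bins 36.3% against 36.6% and 41.2% against 39.5%. The next region along the chromosome was itself a member for 40.3% of members (interval 39.2 to 41.4), for 39.3% of regions with a Mef2Da1 peak only, and for 35.8% and 36.1% of those with a Mef2Da2 peak only or peaks of both. No test was made of these differences, because neighbouring regions are not independent.

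**Figure D5:**
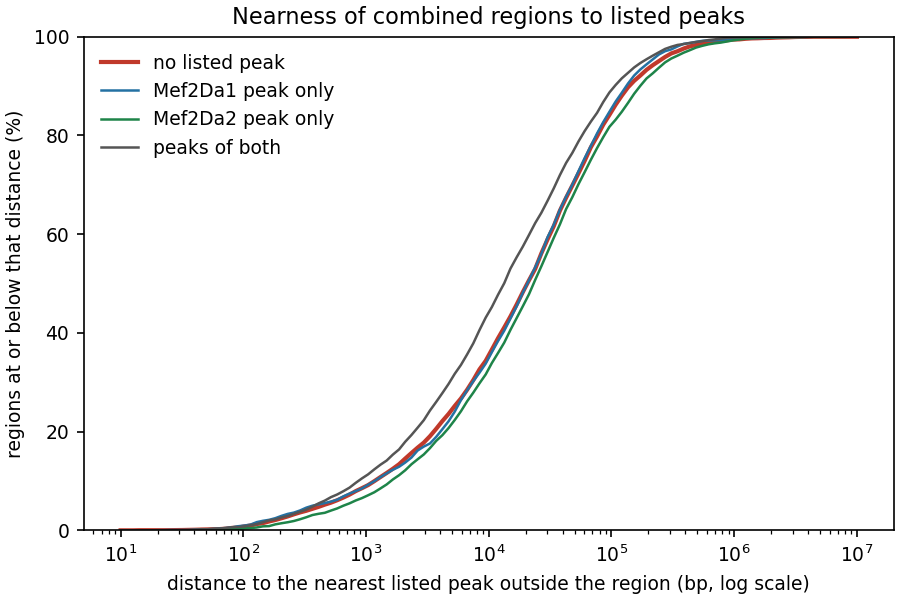
Cumulative share of combined regions (y axis, %) by distance to the nearest listed peak outside the region (x axis, bp, log scale), for regions without a listed peak (red) and the classes with listed peaks. Medians are 20450 bp for the red curve and 13317 bp for regions with peaks of both.

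Median heights in the members hardly varied with that distance. The joint floor and the absence of listed peaks left the isoform heights and the joint −log10 p little room to vary. Their evenness is therefore only a description. In members up to 1 kb from a listed peak, the median Mef2Da1 height was 37 over 18 in its control and the median Mef2Da2 height 28 over 12. Beyond 100 kb these medians were 37 over 18 and 28 over 11. Both isoforms were at least 2-fold above their controls in 34.4% (interval 30.8 to 38.1) of members up to 1 kb away, 30.1% (28.1 to 32.1) at 1 to 10 kb, 32.0% (30.5 to 33.5) at 10 to 100 kb and 34.9% (32.1 to 37.7) beyond 100 kb. The distance and the joint −log10 p had a Spearman correlation of 0.0043 across the members. Members on chromosome 15 were closer to listed peaks, with 47.5% within 10 kb, against 34.6% on the other 18 chromosomes. Whether regions with a listed peak on chromosome 15 were closer too was not examined.

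The extremes of distance show moderate isoform heights too, within the same bounds. The closest member, at chromosome 12, 114378724 to 114379724, lay 13 bp from a Mef2Da1 peak, with Mef2Da1 at 34 over 21 and Mef2Da2 at 36 over 13. The member at chromosome 10, 80391264 to 80392511, was 14 bp from a Mef2Da1 peak, with 42 over 22 and 36 over 17. The member at chromosome 9, 50560222 to 50560768, was 25 bp from a Mef2Da2 peak, with 42 over 23 and 21 over 11. None of these had both isoforms at least 2-fold above their controls. The farthest member, at chromosome 7, 46528744 to 46530599, lay 4030027 bp from any listed peak, with Mef2Da1 at 35 over 33 and Mef2Da2 at 36 over 20. At chromosome 14, 41780294 to 41781097, the distance was 3998187 bp, with 37 over 26 and 28 over 10. At chromosome 5, 8797915 to 8798450, it was 3281492 bp, with 31 over 11 and 32 over 11. Of the 3 farthest members this was the only one with both isoforms at least 2-fold above their controls.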

How the data were processed

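ChIP-seq of Mef2Da1, Mef2Da2 and both peptide-blocked antibodies was analysed from 2 peak lists and 1 combined table. The submitters' processing notes name BWA 0.5.9 and mm9. The caller of the peaks, the filters and the choice of combined regions are not stated in the sources used here. The deposited signal is a coverage height, and the deposited −log10 p is the authors' own. For the blocked libraries the deposited −log10 p column was used as a score, since some values were below 0. Columns of the table were tied to samples by the file name of each isoform's list, as sample titles name them differently.

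Overlap needed 1 shared bp, and distances count the bases between edges. Of the table's starts, 56 equalled a list start, 37 lay 1 bp before one and 0 lay 1 bp past one, so table and list coordinates were compared as given, and 1 was added to printed starts. Ratios used a pseudocount of 1; a 2-fold limit, levels of 3 and 6 and a distance of 10 kb were used. Overlap and distance code was tested on simulated intervals. The members and measures were chosen with earlier results of these data known. The levels of 7 and of the blocked score and the width bins were chosen after their values were seen. So were the split of chromosome 15 and the height limits of 50 and 60. Regions were named by coordinates: the 5 highest by joint −log10 p, by lesser −log10 p, by each isoform's height and by blocked score, the 3 closest and 3 farthest, and 3 on each side of the list level. Ties went to the higher joint −log10 p, except that the 3 on each side of the list level, which tied, stand in order of position. Values were computed with SciPy 1.17.1, pandas 2.3.3 and NumPy 2.4.6 in Python 3.11.15 and drawn with Matplotlib 3.10.9.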

Additional observations from a re-analysis of the deposited data

How the results depend on the processing

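Unknown depth limits every comparison of heights between libraries, and 1 library per group leaves no replicate to omit. No paired analysis was possible because each group has 1 library and no result comes from a test. Of 39 alternative values for 12 results, 10 stayed within the main value's 95% interval (within 1.5 times for the count of members, 7470 to 7528), 25 moved and 4 reversed.

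Scaled to totals, the share at least 2-fold above the control was 1.51% for Mef2Da1, 2.80% for Mef2Da2 and 0.372% for both, with median log2 ratios of −0.36 and −0.71. With median scaling these were 2.46%, 4.93%, 0.651%, −0.19 and −0.40. Both scalings centre on regions chosen for signal. A pseudocount of 5 gave 33.6%, 48.05%, 20.4%, 0.82 and 0.95. Without chromosome 15, Mef2Da1 gave 48.1% and 0.96, both isoforms 33.2%, and the median distance 21804 bp. Counting only listed peaks in a combined region, the median distance was 22045.5 bp and the share within 10 kb 34.1%. By construction, limits of 5 and 20 kb gave 24.5% and 49.5%; levels of 2 and 4 gave 96.9% and 31.8% for both isoforms, 41.6% and 4.32% for Mef2Da1-BLOCK, and 18.8% and 0.292% for Mef2Da2-BLOCK.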
